A study of Mus musculus with 33 samples.

Results

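The genes described here are 10 members of the mouse matrix metalloproteinase and tissue inhibitor families, among 32285 genes listed in the files. They were taken from a fixed list of names: the proteases Mmp8, Mmp9, Mmp12, Mmp13, Mmp14, Mmp19 and Mmp25, and the inhibitors Timp1, Timp2 and Timp3. All 10 were present in the count matrices. The study tagged cells in mouse tissues with biotin by SAMENT, a sortase-based way of marking cells close to injected tumour cells, and sorted the dissociated tissue into biotin positive and biotin negative cells for single-cell RNA-seq. After an injection labelled intracardiac, bone, brain, liver and lung gave 4 samples of each sort, 32 in all. After an injection labelled IIA, bone from 6 injections was sorted the same way, giving 12 hashtagged samples (6 positive and 6 negative) pooled in 1 library. Strain, genotype, age and the injected cell line are not among the labels used here, and every sample of both experiments received an injection and the labelling substrate, so no uninjected group is in the comparison.

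Matrix metalloproteinases are zinc endopeptidases that are made as inactive precursors and cut collagens, gelatins, elastin and many surface and signalling proteins. TIMPs bind the active site of the mature enzymes, and the ratio of enzyme to inhibitor sets how much matrix is cut. In bone, neutrophils store the collagenase Mmp8 and the gelatinase Mmp9 in granules, osteoclasts make Mmp9, osteoblast-lineage cells and hypertrophic chondrocytes make the collagenase Mmp13, and macrophages make the elastase Mmp12. Transcript counts do not measure stored or active enzyme.

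On GRCm38, the collagenase and elastase genes Mmp8 (chr9:7558429-7568486), Mmp12 (chr9:7344397-7360461) and Mmp13 (chr9:7272514-7283333) lie within a single gene cluster. Mmp9 is at chr2:164940326-164955850, Mmp14 at chr14:54431598-54442456, Mmp19 at chr10:128790910-128800827 and Mmp25 at chr17:23628315-23645269. The inhibitors are at chrX:20870166-20874737 (Timp1), chr11:118301061-118355411 (Timp2) and chr10:86300412-86349505 (Timp3). The 3 neighbours on chromosome 9 were read out in partly different cell types below, so their upstream sequences are shown side by side. Mmp8 was found mainly in neutrophils and monocytes, and Mmp12 in macrophages and unnamed clusters. Mmp13 was found in a few stromal cells and also in IIA macrophages. Each run is the plus strand of GRCm38.p6 upstream of the RefSeq start, 5′ to 3′, in lower case. The runs of Mmp8 and Mmp13 are 250 bases and reach the start, and that of Mmp12 is 234 bases because it was ended before an annotated Mmp12 exon that begins upstream of the RefSeq start. Capitals mark matches to an AP-1 motif (TGANTCA), an ETS motif (AGGAAG, or CTTCCT on the other strand) and a TATA box (TATAAA, or TTTATA).
Mmp8, chr9:7558179-7558428: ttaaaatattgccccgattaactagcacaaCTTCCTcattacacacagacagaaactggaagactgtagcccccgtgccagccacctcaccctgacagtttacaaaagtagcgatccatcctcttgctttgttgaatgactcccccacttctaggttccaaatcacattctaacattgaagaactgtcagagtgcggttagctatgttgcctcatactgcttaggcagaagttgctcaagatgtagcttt
Mmp12, chr9:7344147-7344380: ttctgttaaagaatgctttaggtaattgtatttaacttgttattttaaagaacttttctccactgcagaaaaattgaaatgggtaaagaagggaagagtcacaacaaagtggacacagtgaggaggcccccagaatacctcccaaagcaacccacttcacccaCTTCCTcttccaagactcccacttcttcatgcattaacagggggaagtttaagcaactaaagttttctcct
Mmp13, chr9:7272264-7272513: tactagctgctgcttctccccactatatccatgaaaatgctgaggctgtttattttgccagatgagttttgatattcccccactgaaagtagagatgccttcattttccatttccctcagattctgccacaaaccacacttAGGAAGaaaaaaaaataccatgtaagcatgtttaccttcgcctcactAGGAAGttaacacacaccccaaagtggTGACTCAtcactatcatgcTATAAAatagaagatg
The Mmp13 window held an AP-1 match 35 to 29 bases before the start, a TATA match 16 to 11 bases before it, and 2 ETS matches. The Mmp8 and Mmp12 windows each held 1 ETS match and none to the AP-1 or TATA letters, and each held 2 matches to a C/EBP motif (TTNNGNAA on either strand), which the Mmp13 window did not. Shares were counted over 32536 different RefSeq promoter windows, each the 250 bases before a start, as long as the Mmp8 and Mmp13 runs. Of these windows, 6.73% held the AP-1 letters, 29.6% the ETS letters, 36.8% the C/EBP letters and 12.3% the TATA letters. These are matches of letters only. Promoter entries were found for 8 of the 10 genes, all but Mmp9 and Mmp19.

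The 32 intracardiac samples held 57065 cell barcodes, of which 55366 passed filters on UMIs (unique molecular identifiers, the counted molecules), genes and mitochondrial reads, with 94 to 3505 cells and 497940 to 44874529 UMIs per sample. The IIA library held 26666 barcodes, of which 22685 could be given to a hashtag and 22362 were kept. IIA positive samples had 249 to 2140 cells and IIA negative samples 2322 to 3480. Intracardiac samples with the same replicate number shared no barcode in any of 112 pairs, while 188 of 384 pairs with different numbers shared some, at most 7. Cells were clustered (36 intracardiac clusters, 27 IIA clusters) without the members or the other genes of the 2 families, so a member's level in a cluster did not help to define it. Class names below mean resemblance by marker genes only, such as neutrophil-like, and some clusters were left unnamed. Levels are CPM, UMIs of the gene per 1000000 UMIs of the same cells.

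Mmp8, neutrophil collagenase, was highest in mature neutrophils of the intracardiac samples, at 2681 CPM, followed by immature neutrophils at 1278 CPM and monocytes at 1072 CPM. These 3 classes held 39.1%, 36.5% and 16.1% of all Mmp8 UMIs. Mmp8 was seen in 78.1% of mature neutrophils (median 3635 UMIs per cell) and 4.17% of NK cells (median 2737 UMIs), a class in which no Mmp8 was expected and whose level was 16.3 CPM. After each cell was thinned to 1000 UMIs, the share of mature neutrophils with Mmp8 was 66.1%. Among B cells, 1 cluster of 305 cells stood at 1072 CPM, against 21.3 CPM in the main B cell cluster of 4825 cells. In that small cluster 72.8% of cells had a doublet score in the top 5%. In the IIA library Mmp8 had the same order of classes, at 1077 CPM in mature neutrophils, 356 CPM in immature neutrophils and 109 CPM in monocytes. The 2 libraries differ in chemistry (3′ against 5′ ends) and were not tested against each other.

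Mmp9, gelatinase B, stood at 1319 CPM in mature and 1016 CPM in immature neutrophils, which held 36.0% and 54.3% of its intracardiac UMIs. It was seen in 88.7% of mature neutrophils and 5.59% of NK cells. The highest level in either experiment was in IIA osteoclasts, at 9458 CPM, with a UMI in 94.6% of 56 cells. These 56 cells held 11.2% of all Mmp9 UMIs of the IIA library, and they were unevenly spread: 37 came from positive injection 3 (8296 UMIs) and 16 from positive injection 1 (1477 UMIs). IIA mature neutrophils stood at 2825 CPM and immature neutrophils at 1281 CPM. Mmp25, leukolysin, a membrane-anchored protease of neutrophils, was higher in immature (138 CPM) than in mature neutrophils (82 CPM) of the intracardiac samples. Immature neutrophils held 68.7% of its UMIs and mature neutrophils 20.8%. Outside the neutrophils, Mmp25 reached 83.7 CPM in a T cell cluster led by Icos and Ctla4 (1599 cells), against 3.14 CPM in the T cell cluster led by Lef1 and Dapl1 and 1.57 CPM in NK cells.

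**Figure D1:**
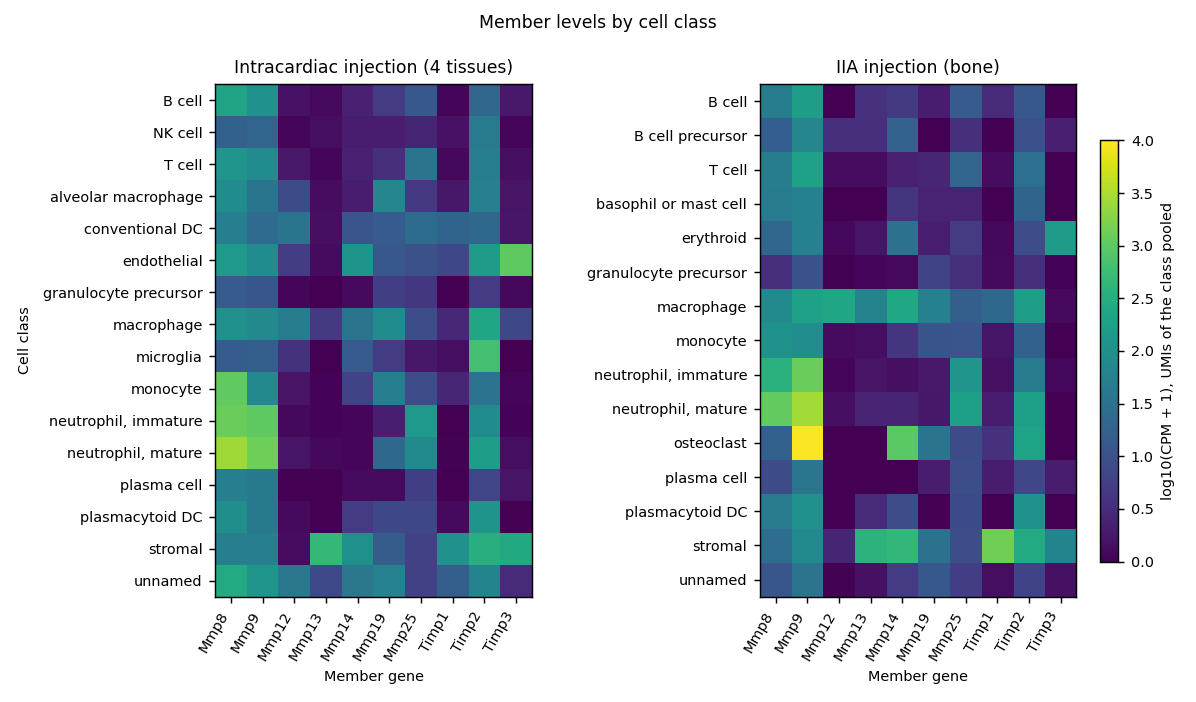
Each square is the level of a member gene (columns) in a cell class (rows), as log10(CPM + 1) with all UMIs of the class pooled, for the intracardiac samples at left and the IIA library at right. Mmp8, Mmp9 and Mmp25 are brightest in neutrophil rows, Mmp9 is brightest in IIA osteoclasts (9458 CPM), and Timp3 in endothelial cells (1006 CPM).

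The neutrophil-lineage clusters of the intracardiac samples can be set out from precursors to mature cells by their leading genes: cluster 14 (Elane, Ctsg, Mpo), cluster 12 (Fcnb, Camp and histone genes), cluster 11 (Ltf, Ngp, Camp), cluster 16 (Stfa3, Cstdc5), cluster 10 (Retnlg, Prok2), cluster 15 (Wfdc17, G0s2) and cluster 17 (Ccrl2, Il1b). Along this order Mmp8 averaged 12.4 ± 11.3 CPM (SD, n = 11 samples) in cluster 14, 70.1 ± 38.6 in cluster 12 (n = 12) and 1643 ± 500 in cluster 11 (n = 17). Mmp8 then stood at 3263 ± 617 in cluster 16 (n = 21), 3407 ± 925 in cluster 10 (n = 26), 2898 ± 1104 in cluster 15 (n = 32) and 1345 ± 759 in cluster 17 (n = 29). No sample of the 2 earliest clusters was above 122 CPM for Mmp8, and no sample of cluster 11 was below 937 CPM. The means of clusters 16, 10 and 15 differed by less than their spread over samples. Cluster 9 (Igfbp6, Csf3r; 769 cells), also named mature but with a median depth of 0.262 of its samples' medians, was not placed in this order. It averaged 676 ± 444 CPM for Mmp8, 1040 ± 359 for Mmp9 and 37.6 ± 28.9 for Mmp25 over 11 samples.

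The highest mean of Mmp9 along this order was in cluster 16. Mmp9 averaged 10.4 ± 6.51 CPM in cluster 14, 117 ± 43.8 in cluster 12, 1475 ± 226 in cluster 11, 2108 ± 286 in cluster 16, 1716 ± 284 in cluster 10, 1383 ± 335 in cluster 15 and 1010 ± 289 in cluster 17, over the same samples. Mmp25 followed with 2.94 ± 1.59, 70.8 ± 12.1, 179 ± 29.5, 220 ± 51.5, 132 ± 33.8, 84.8 ± 35.4 and 45.7 ± 22.4 CPM. The inhibitor Timp2 was 89.5 ± 22.4 CPM in cluster 11, and its means in cluster 16 (218 ± 76.1 CPM), cluster 10 (237 ± 55.9) and cluster 15 (203 ± 98) differed by less than their spread, as those of Mmp8 did. These are descriptions across clusters that drew on different numbers of samples and on different tissues. In negative samples, cluster 12 had 957 bone and 6 lung cells, and cluster 15 had 276 bone and 1892 lung cells. The part of tissue in these levels was not tested. IIA clusters showed a like order, with Mmp9 at 22 ± 30.9 CPM (n = 12) in the Prtn3 and Elane cluster and 3810 ± 453 CPM (n = 10) in the cluster led by Retnlg and Gpr27.

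**Figure D2:**
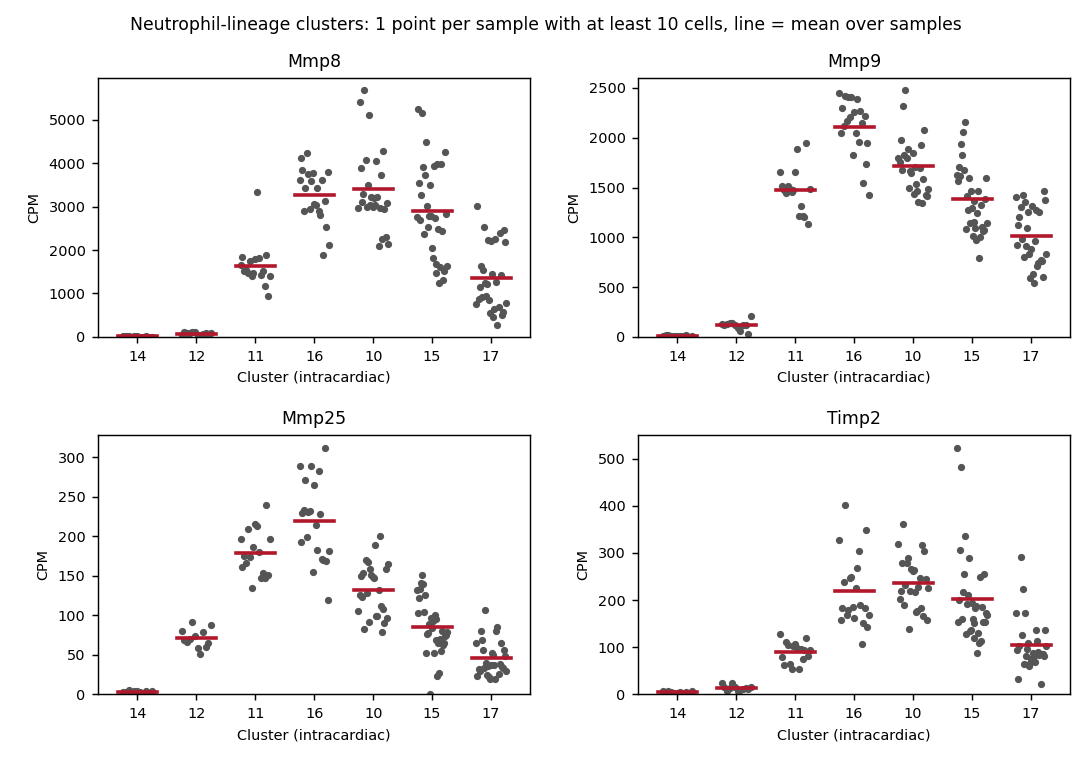
CPM of 4 members in 7 neutrophil-lineage clusters of the intracardiac samples, ordered from precursors (14) to cells led by Ccrl2 and Il1b (17). Each point is a sample with at least 10 cells of the cluster and red lines are means over samples. Mmp8, Mmp9 and Mmp25 are near the floor in cluster 14, and Mmp25 and Mmp9 have their highest mean in cluster 16 (220 and 2108 CPM).

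Monocyte clusters differed in which protease they held. Mmp8 averaged 926 ± 380 CPM (n = 14 samples) in cluster 1 (Vcan, Ccr2), 1263 ± 602 (n = 25) in cluster 2 (Saa3, Vcan) and 775 ± 462 (n = 21) in cluster 13 (Ace, Adgre4), which overlap. Mmp9 was 439 ± 312 CPM in cluster 13 against 12.9 ± 10.2 in cluster 1 and 49.5 ± 63.1 in cluster 2. Mmp25, otherwise highest in neutrophils, was also higher there, at 49.4 ± 41.3 CPM in cluster 13 against 0.38 ± 0.70 in cluster 1 and 3.67 ± 5.96 in cluster 2. Of the cells of cluster 13, 12% had a doublet score in the top 5%, against 0.70% in cluster 1 and 4.71% in cluster 2, and the part of doublets or neutrophil RNA in its Mmp9 was not tested. Mmp19, a secreted protease made by many tissues, was 65.9 ± 40.6 CPM in cluster 2 and 19.5 ± 17.9 in cluster 1.

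Mmp12, macrophage elastase, was found in few cells. In the IIA library 171 of the 194 cells with a UMI were macrophages, and these held 98.4% of its UMIs, at 224 CPM, with a UMI in 14.6% of 1175 cells and in 0 of 1000 B cells (1.61 CPM or less at a floor of 3 counts). In the intracardiac samples 606 cells had a UMI, of which 118 were named macrophages, 86 alveolar macrophages and 218 unnamed. Named macrophages stood at 46.3 CPM and held 16.7% of Mmp12 UMIs, and unnamed clusters held 64.1%. Most of that came from cluster 20, 1727 unnamed cells with Pf4 and Spp1 among their leading genes, at 134 ± 104 CPM over 17 samples. Cluster 30 (Cd5l, Clec4f) averaged 102 ± 102 CPM over 5 samples and cluster 29 (Ccl12, Ptgds) 59.6 ± 104 over 19, so the 3 clusters did not differ beyond their spread. Cluster 31 (Vcam1, Ccr3) averaged 1.03 ± 1.79 CPM over 3 samples. Conventional dendritic cells stood at 29.9 ± 44.3 CPM over 23 samples.

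Mmp14, the membrane-type protease MT1-MMP that also activates other family members, stood at 118 CPM in endothelial cells and 99.3 CPM in stromal cells of the intracardiac samples. Unnamed clusters held 58.9% of its UMIs there, endothelial cells 9.21% and stromal cells 6.42%. The unnamed cluster 20 averaged 105 ± 46.5 CPM over 17 samples, and cluster 23 (stromal) 90.5 ± 66.6 CPM over 8, which overlap. The 2 endothelial clusters differed: cluster 34 (Clec4g, Gpr182) averaged 251 ± 114 CPM over 7 samples, from 106 to 396, and cluster 32 (Ly6c1, Cldn5) 7.27 ± 13.4 CPM over 5 samples, at most 30.8. In the IIA library Mmp14 stood at 932 CPM in osteoclasts, 440 CPM in stromal cells and 239 CPM in macrophages, with a UMI in 98.2%, 89.2% and 46.6% of those cells. Their median depths were 17432, 19797 and 4601 UMIs per cell, and B cells (median 1492 UMIs) had Mmp14 in 0.6%. Mmp19 averaged 199 ± 159 CPM in cluster 20 (n = 17) and 179 ± 141 CPM in cluster 31 (n = 3), which overlap. Named macrophages stood at 83.7 CPM, alveolar macrophages at 71.1 CPM and IIA macrophages at 55.8 CPM.

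Mmp13, collagenase 3, sat in very few cells. Stromal cells held 69.4% of its intracardiac UMIs, but only 12 of 268 stromal cells had a UMI, and 3 cells with 714, 278 and 188 UMIs made up 94.0% of 1255. Of these UMIs, 1212 came from bone positive replicate 2. Cells with Mmp13 stood at 5931 CPM for Ibsp, a bone matrix sialoprotein, against 0 in the other stromal cells, at 5657 against 194 CPM for Col1a1, and at 4603 against 103 CPM for Cxcl12. The cartilage collagen Col2a1 stood at 629 against 4.62 CPM, while Prg4, the joint lubricant lubricin, was at 363 against 396 CPM. The cluster itself was mixed, with Ttr and Alb among its leading genes beside Dcn and Mgp. In the IIA library 21 of 203 stromal cells held 1663 Mmp13 UMIs, and 4 cells gave over 50% of them. Positive injection 2 gave 885 of these UMIs, injection 3 gave 651, injection 1 gave 81 and injection 4 gave 40. Ibsp stood at 629 CPM in the Mmp13 cells against 2.21 CPM in the others, and Col1a1 at 9667 against 1293 CPM. In this library Col2a1 was lower in the Mmp13 cells, at 3.17 against 198 CPM, and Prg4 stood at 2895 against 917 CPM. IIA macrophages had a second, more even source, at 60.5 CPM with a UMI in 8.09% of cells.

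Timp1, a secreted inhibitor that is induced in injury, was carried by stromal cells in the IIA library, at 1339 CPM with 96.5% of its UMIs and a UMI in 67.5% of those cells. Its level there varied from 35.8 to 3575 CPM over 10 samples. In the intracardiac samples it was lower, at 103 CPM in stromal cells, 49.0 ± 34.8 CPM in cluster 20 (n = 17) and 18.5 CPM in conventional dendritic cells. Unnamed clusters held 60.3% of its UMIs there and stromal cells 16.8%. Timp3, the inhibitor that binds to extracellular matrix, was endothelial in the intracardiac samples: endothelial cells held 75.8% of its UMIs at 1006 CPM, with a UMI in 73.6% of cells against 0.0707% of NK cells. Cluster 32 averaged 1452 ± 606 CPM (n = 5) and cluster 34 867 ± 189 CPM (n = 7), which overlap. Stromal cells stood at 265 CPM for Timp3 and held 16.5% of its UMIs.

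No endothelial cluster was found in the IIA library, and there 68.7% of Timp3 UMIs fell in the cluster named erythroid (443 cells, 154 CPM). Only 40 of those cells had Timp3, with 655 UMIs. These 40 cells stood at 21016 CPM for Pf4 and 2054 CPM for Itga2b, both genes of megakaryocytes and platelets, against 63.3 and 103 CPM in the other cells of the cluster. For the globin Hbb-bs they stood at 0 against 8108 CPM. The erythroid name therefore does not describe the cells that held Timp3. Positive injections 6, 4 and 5 gave 250, 179 and 149 of the UMIs.

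Timp2, an inhibitor that also takes part in activating pro-Mmp2, was spread over many classes. Microglia stood highest at 629 CPM, with a UMI in 87.2% of 454 cells, or 43.4% after thinning to 1000 UMIs. Stromal cells stood at 328 CPM, named macrophages at 232 CPM, mature neutrophils at 172 CPM and endothelial cells at 155 CPM, and NK cells still had 41.5 CPM. Over samples, microglia averaged 557 ± 198 CPM (n = 5), cluster 23 (stromal) 489 ± 284 (n = 8), cluster 31 310 ± 167 (n = 3) and cluster 29 302 ± 207 (n = 19), so neighbours in this order overlapped. Microglia had no UMI of Mmp13 or Timp3, which allows up to 1.20 CPM of each at a floor of 3 counts. Intervals and floors of this kind cover counting error only.

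Likeness to other genes was measured as Pearson's r of log2(CPM + 10) across the 36 intracardiac clusters, as a description; clusters share samples and depth. The genes most alike were Tarm1 for Mmp8 (r = 0.94), Asprv1 for Mmp9 (0.95) and Ly6g for Mmp25 (0.89). They were Ccl24 for Mmp12 (0.88), Sash1 for Mmp14 (0.87) and Ftl1-ps1, a ferritin pseudogene that can share reads with its parent, for Mmp19 (0.87). Wwc1 was closest to Mmp13 (0.96), Zfhx3 to Timp2 (0.76) and Cavin2, a caveolar protein of endothelium, to Timp3 (0.99), with the collagen chains Col4a2 and Col4a1 next (both 0.99). The gene closest to Timp1 was itself a member, Mmp13 (0.83). The level of Mmp13 in the stromal cluster came mostly from the few cells described above, which limits both of its values here. Among member pairs, Mmp8 with Mmp9 reached 0.77 and Mmp9 with Mmp25 0.82.

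Biotin positive and negative cells were then compared, first in IIA bone. With all cells of each sample summed, 8 of the 10 members passed edgeR's quasi-likelihood test at an adjusted p under 0.05, 6 higher and 2 lower in positive samples. The background was high, since 50.2% of 12625 genes passed (27% higher and 23.2% lower). The members' median log2 difference was 2.44 against 0.08 for all genes tested. As the list was chosen with earlier results of these data known, these medians are a description only. In a sum over all cells, fewer cells of a type and less RNA per cell cannot be told apart. The classes themselves differed: macrophages were 19.2% of positive cells (range over samples 4.02 to 52.0%) and 2.23% of negative cells (0.521 to 4.83%), granulocyte precursors 18.02% (2.68 to 40.0%) and 1.41%, stromal cells 2.90% and 0.433%, osteoclasts 1.32% and 0.00718%, and immature neutrophils 14.1% and 39.0%. Mature neutrophils differed little, at 22.4% of all positive and 24.9% of all negative cells with samples pooled. The part of these shares in the all-cell results was not tested apart from the class-wise sums below.

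Of the neutrophil proteases, Mmp8 and Mmp25 were lower in positive samples. Mmp8 stood at 109, 131, 93.4, 113, 31.9 and 124 CPM in positive injections 1 to 6 and at 321, 423, 445, 306, 370 and 302 CPM in negative ones. The groups did not overlap. The means were 100.3 ± 36.0 and 361 ± 61.7 CPM (SD, n = 6 each), a log2 difference of -2.09 (SE 0.28, adjusted p = 9.46e-05, edgeR). Mmp25 behaved alike, at 32.6, 17.3, 25.9, 24.7, 9.68 and 30.6 CPM in positive samples and 77.8 to 98.2 CPM in negative samples (log2 difference -2.13, SE 0.24, adjusted p = 3.09e-05, edgeR). Mmp9 did not pass in edgeR. It stood at 664, 537, 1580, 294, 110 and 306 CPM in positive samples and 897 to 1263 CPM in negative ones, with 5 of 6 positive samples below all negative samples and injection 3 above them (log2 difference -1.10, SE 0.48, adjusted p = 0.0746, edgeR). Injection 3 is the sample with 37 of the 56 osteoclasts, and without it the log2 difference was -1.71 (adjusted p = 0.00258, edgeR). Over all samples Mmp9 passed in DESeq2 (-1.09, adjusted p = 0.0430), with at most 5% mitochondrial UMIs (-1.31, adjusted p = 0.0182, edgeR) and with the injection as a block (-1.51, adjusted p = 0.0282, edgeR). Leaving out the stromal and osteoclast clusters gave a log2 difference of -1.98 (SE 0.29, adjusted p = 0.000185, edgeR); this setting was chosen after the data were seen.

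Mmp12, Mmp13, Mmp14 and Mmp19 were higher in positive samples, with the highest values in injections 2 and 3. Mmp12 stood at 34.4, 81.9, 160, 0, 4.69 and 2.69 CPM in positive samples and at most 2.44 CPM in negative ones (log2 difference 5.62, SE 1.28, adjusted p = 0.00312, edgeR); positive injection 4, at 0, lay within the negative range. Mmp13 stood at 29.97, 274, 140, 19.1, 1.00 and 1.18 CPM against 0.623 to 2.11 CPM, so injections 5 and 6 overlapped the negative samples (log2 difference 5.84, SE 1.29, adjusted p = 0.00269, edgeR). Most of that Mmp13 lay in the few stromal cells described above, and without the stromal and osteoclast clusters the log2 difference was 3.83 (SE 1.03, adjusted p = 0.00857, edgeR). Mmp14 stood at 121, 266, 345, 16.7, 14.5 and 12.6 CPM against 4.78 to 24.8 CPM (log2 difference 3.12, SE 0.85, adjusted p = 0.00923, edgeR). Mmp19 had the smallest of these differences, at 17.3 ± 14.1 against 4.41 ± 1.3 CPM, a log2 difference of 1.76 (SE 0.50, adjusted p = 0.0109, edgeR).

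The inhibitors split. Timp3 stood at 6.25, 15.9, 29.6, 85.6, 6.49 and 42.2 CPM in positive samples and 0.309 to 1.66 CPM in negative samples, with no overlap (log2 difference 4.81, SE 0.72, adjusted p = 0.000193, edgeR). These values rested on few cells, as 89 cells of the library had Timp3. In the cluster named erythroid, 4 cells gave 179 UMIs in positive injection 4, and 8 cells gave 250 in injection 6. Timp1 stood at 25.3, 572, 437, 23.3, 15.6 and 2.02 CPM against 1.32 to 39.0 CPM, so only injections 2 and 3 lay above all negative samples. Its log2 difference was 3.98 (SE 1.32, adjusted p = 0.0243, edgeR), and without negative injection 1, 4 or 5 it was 3.88, 3.76 and 3.73, with adjusted p just above 0.05 (up to 0.0504, edgeR). Without the stromal and osteoclast clusters it was 1.95 (adjusted p = 0.0862, edgeR). Timp2 overlapped fully, at 19.2 to 216 CPM against 43.2 to 77.7 CPM, and did not pass (log2 difference 0.44, SE 0.52, adjusted p = 0.512, edgeR).

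**Figure D3:**
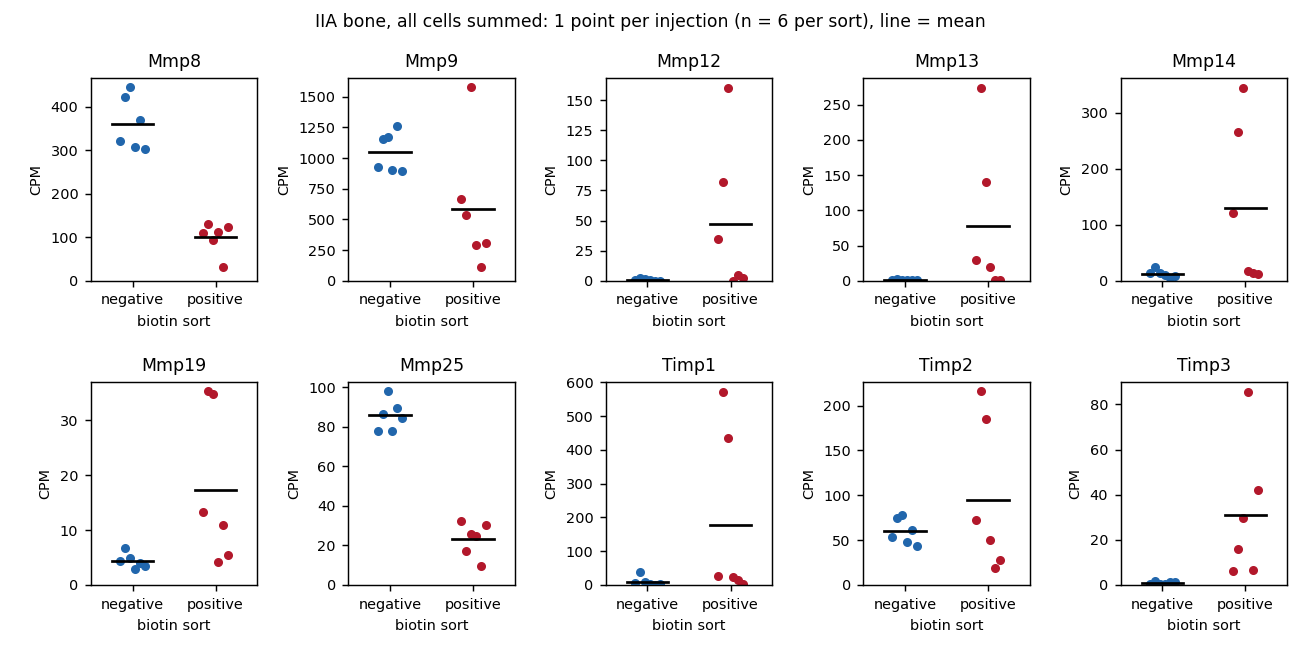
CPM of each member with all cells of an IIA bone sample summed. Each point is an injection (n = 6 per sort, blue negative, red positive) and black lines are means. Mmp8, Mmp25 and Timp3 do not overlap between sorts, and the highest positive points of Mmp12, Mmp13, Mmp14 and Timp1 are injections 2 and 3.

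Within IIA macrophages the inhibitor and protease differences could be read without the change in class shares, though the class itself differed in make-up by sort: a second cluster (81 cells, led by Vcam1 and Cd5l) was 10.2% of positive and none of the 378 negative macrophages. Of 6 members tested, 3 were higher in positive cells, against 25.8% of 5158 genes called. Timp2, which had not passed over all cells, stood at 159, 196, 230, 816, 253 and 448 CPM in positive macrophages and 17.7, 24.0, 13.3, 34.5, 27.6 and 16.2 CPM in negative ones. Every positive sample was above every negative sample, with a log2 difference of 3.8 (SE 0.40, adjusted p = 7.27e-06, edgeR). Mmp14 stood at 307, 240, 374, 136, 200.1 and 303 CPM against 17.7, 122, 115, 69.1, 4.60 and 32.3 CPM, again with no overlap (log2 difference 2.16, SE 0.46, adjusted p = 0.00249, edgeR). Mmp12 stood at 298, 149, 450, 0, 238 and 103 CPM against 3.55, 30.9, 57.7, 17.3, 0 and 0 CPM (log2 difference 3.69, SE 0.67, adjusted p = 0.000736, edgeR). The positive sample at 0 for Mmp12 was injection 4, which had 10 macrophages.

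The other macrophage members were at or below the filter or did not pass. Mmp13 was below the filter on low counts in the macrophage sums, at 53.3 ± 38.1 CPM in positive and 8.09 ± 10.0 CPM in negative samples, and it passed in all 4 alternatives that tested it. Macrophage numbers ran from 10 to 344 cells in positive and 16 to 130 in negative samples. With the main macrophage cluster alone, a setting chosen after the data were seen (5 positive and 6 negative samples, 25.2% of 5830 genes called), Timp2 differed by 3.5 (SE 0.30, adjusted p = 1.91e-06), Mmp12 by 3.97 (SE 0.56, adjusted p = 0.000127), Mmp13 by 3.17 (SE 0.46, adjusted p = 0.000152) and Mmp14 by 2.36 (SE 0.46, adjusted p = 0.00163) on the log2 scale in edgeR. Mmp8, Mmp9, Mmp19 and Timp1 did not pass there. Mmp8, at 80.0 CPM over all IIA macrophages, is a neutrophil gene that B cells of the same library also showed, at 49.4 CPM.

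IIA neutrophils showed no member past the threshold among 4 tested, against 8.06% of 8996 genes called (6.08% higher, 1.98% lower). Mmp8 averaged 557 ± 123 CPM in positive and 598 ± 94.4 CPM in negative neutrophils, Mmp9 1600 ± 270 and 1797 ± 226 CPM, Mmp25 129 ± 22.7 and 145 ± 9.58 CPM, and Timp2 111 ± 29.5 and 85.4 ± 20.7 CPM. Mmp25 had an unadjusted p of 0.0459 (adjusted p = 0.204, edgeR). The 2 sorts drew their neutrophils from the same clusters in different shares: cluster 4 (Acod1, Cxcl2) was 26.4% of positive and 1.52% of negative neutrophils, and cluster 2 (Tnfaip6, G0s2, Nr4a1) 14.4% and 2.70%. The immature clusters alone, a split added after the data were seen, gave 3 members past the threshold, all lower in positive samples, where 11.9% of 7966 genes were called. Mmp8 was -0.68 on the log2 scale there (SE 0.15, adjusted p = 0.00345), Mmp9 -0.65 (SE 0.13, adjusted p = 0.00168) and Timp2 -0.72 (SE 0.21, adjusted p = 0.0262) in edgeR, while Timp2 was 0.27 in all neutrophils. The immature clusters also differed in share by sort. Cluster 1 (Fcnb, Chil3) was 261 of 575 positive and 1678 of 6889 negative immature neutrophils. Of the immature clusters it had the lowest means of Mmp8 (16.9 ± 11.4 CPM), Mmp9 (133 ± 64.5) and Timp2 (8.63 ± 5.70), over 11 samples. The next lowest were in cluster 5, at 92.7 ± 37.5, 803 ± 97.2 and 22.8 ± 7.73 CPM. The part of these shares in the 3 differences was not tested. In the mature clusters alone Mmp8 was -0.48 (adjusted p = 0.148) and Mmp9 -0.40 (adjusted p = 0.0983) in edgeR, with 15.1% of 6235 genes called.

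**Figure D4:**
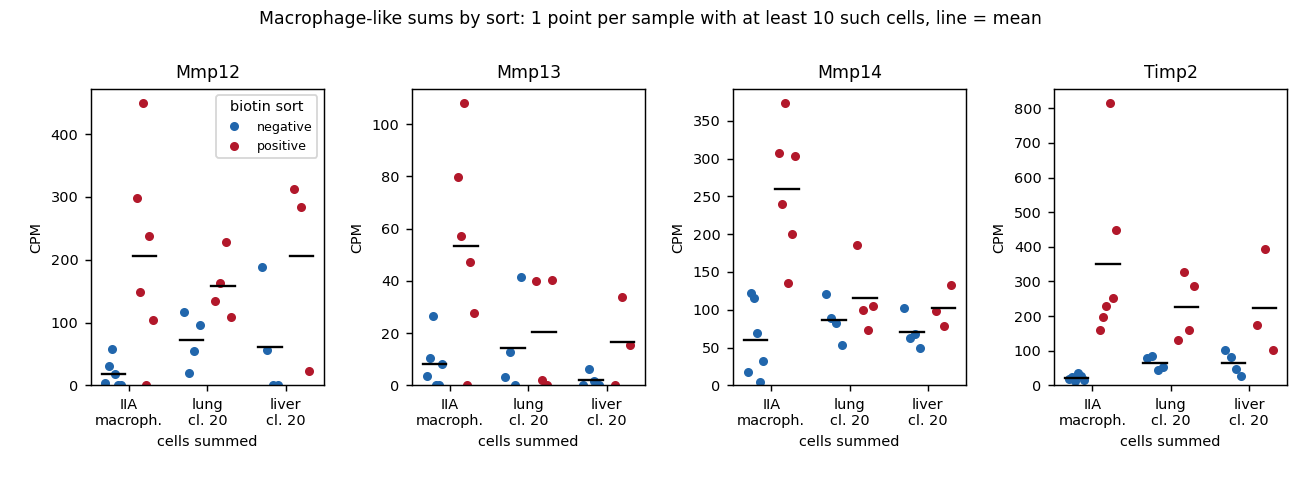
CPM of 4 members in IIA macrophages and in the unnamed cluster 20 (Pf4 and Spp1 among its leading genes) of intracardiac lung and liver, 1 point per sample with at least 10 such cells, with black lines at the means. Timp2 does not overlap between sorts in IIA macrophages (159 to 816 against 13.3 to 34.5 CPM) or in lung cluster 20 (132 to 326 against 45.5 to 85.9 CPM).

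In intracardiac lung, 3 of 9 members tested were higher in positive samples with all cells summed, and 18.3% of 12331 genes were called (11.5% higher, 6.8% lower). Mmp12 stood at 41.4, 33.7, 15.4 and 29.3 CPM in positive replicates 1 to 4 and 5.01, 7.90, 2.09 and 5.87 CPM in negative ones. The groups did not overlap (log2 difference 2.18, SE 0.44, adjusted p = 0.0125, edgeR), and the call was kept in 8 of 8 fits that each left out 1 sample. In a fit over all tissues the log2 difference was 2.23 (SE 1.09) and did not pass (adjusted p = 0.161, edgeR). Mmp14 stood at 47.9, 17.9, 5.29 and 27.5 CPM against 4.22 to 6.05 CPM, with positive replicate 3 inside the negative range (log2 difference 1.90, SE 0.52, adjusted p = 0.0346, edgeR). Timp3 stood at 48.1, 3.62, 3.23 and 12 CPM against 0.396 to 2.59 CPM (log2 difference 3.26, SE 0.92, adjusted p = 0.0385, edgeR). Both calls were kept without positive replicate 2 or 3 and lost without any other of the 8 samples, with adjusted p up to 0.0900 for Mmp14 and 0.09999 for Timp3. Without positive replicate 1 the log2 difference of Timp3 was 1.89 and that of Mmp14 was 1.40. With the replicate as a block, a number within which intracardiac samples shared no barcodes, Mmp14 was 1.60 and did not pass (adjusted p = 0.0695, edgeR). Timp2 did not overlap either, at 90.3 to 135 CPM against 32.2 to 78.0 CPM, but did not pass (log2 difference 0.42, SE 0.34, adjusted p = 0.401, edgeR). The unnamed cluster 20, with the highest Mmp12 mean given above, was 11.1% of positive and 1.97% of negative lung cells. Alveolar macrophages, at 7.40 CPM for Mmp12 and 1.12 CPM for Mmp14, were 44.7% of positive lung cells (14.7 to 81.2%) and 0.284% of negative ones, and endothelial cells 1.95% (0.247 to 6.31%) and 0.147%; the part of these shares was not tested.

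The unnamed cluster 20 was examined by sort in lung and liver, where most of its cells lay, as a comparison added after the data were seen. In lung, Timp2 stood at 132, 326, 161 and 288 CPM in positive samples and 78.1, 85.9, 45.5 and 52.9 CPM in negative ones, with no overlap. The log2 difference was 1.69 (SE 0.32, unadjusted p = 0.000183), but none of 5554 genes passed after adjustment in edgeR (0% called; 723 at an unadjusted p under 0.05), and Timp2 had an adjusted p of 0.0806. DESeq2 called 75 genes (1.35%) in the same sums, with Timp2 at an adjusted p of 0.0019 and Mmp9 at 0.0491. With the replicate as a block edgeR called 6.25% of genes, among them Timp2 (1.68, adjusted p = 0.00355), Mmp9 (2.66, adjusted p = 0.0351) and Mmp8 (-1.21, adjusted p = 0.0303). Mmp9 did not overlap either, at 237, 68.2, 100.3 and 1040 CPM against 18.2 to 58.1 CPM (log2 difference 3.15, SE 0.81, adjusted p = 0.159, edgeR). In liver, Timp2 stood at 175, 393 and 102 CPM in 3 positive samples and 102, 80.9, 45.9 and 27.9 CPM in 4 negative ones (log2 difference 1.77, SE 0.45, adjusted p = 0.254, edgeR), where 0.119% of 5876 genes were called. The liver replicates paired, and with the replicate as a block Timp2 differed by 1.63 (adjusted p = 0.000155), Mmp12 by 1.88 (adjusted p = 0.000408) and Mmp19 by -0.89 (adjusted p = 0.0402) in edgeR, where 3.28% of the 5876 genes were called. Without the block Mmp12 had a log2 difference of 2.09 (adjusted p = 0.633) and Mmp19 of -0.82 (adjusted p = 0.842) in the same tool.

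In brain no member of 8 tested passed in edgeR, against 3.06% of 11064 genes (2.88% higher and 0.181% lower in positive samples). Timp2 stood at 115, 269, 251 and 371 CPM in positive replicates 1 to 4 and 40.1, 92.9, 67.7 and 93.2 CPM in negative ones, with no overlap and all 4 pairs higher. The log2 difference was 1.41 (SE 0.43, adjusted p = 0.108, edgeR). The brain replicates paired, and with the replicate as a block it was 1.43 with an adjusted p of 0.00919 in edgeR, where 6.89% of genes were called; without positive replicate 1 it was 1.62 (adjusted p = 0.0472). Timp3 stood at 94.3, 28.3, 6.02 and 88.6 CPM against 0.698 to 9.22 CPM (log2 difference 3.48, SE 0.93, adjusted p = 0.0775, edgeR). DESeq2 called 11.1% of genes and 3 members in brain: Timp3 at 3.37 (adjusted p = 0.00177), Timp2 at 1.40 (adjusted p = 0.0247) and Mmp8 at -1.75 (adjusted p = 0.0418). Microglia were 18.9% of positive brain cells (3.26 to 45.7%) and 0.453% of negative ones, macrophages 35.0% and 4.39%, and endothelial cells 3.05% and 0.544%; the part of these shares was not tested.

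Liver and bone gave no member past the threshold among 9 tested in each, and 0% of 11854 and 0% of 12533 genes were called by edgeR (1571 and 983 genes at an unadjusted p under 0.05). DESeq2 called 3.64% of genes in liver and 0.423% in bone. In liver, Timp3 averaged 63.9 ± 38.8 CPM in positive and 9.63 ± 6.93 CPM in negative samples (log2 difference 2.49, SE 0.69, adjusted p = 0.196 in edgeR and 0.00889 in DESeq2). Endothelial cells were 9.76% of positive and 2.47% of negative liver cells. In bone, Mmp12 stood at 10.5, 38.3, 0.21 and 0 CPM in positive replicates 1 to 4, and Mmp14 at 15.5, 31.9, 0.491 and 0.292 CPM, so replicates 1 and 2 were high and 3 and 4 were not. Neither passed (adjusted p = 0.615 for each, edgeR). Mmp13, below the filter on low counts, stood at 5.30, 138, 0 and 0 CPM in positive bone replicates 1 to 4 and at most 0.761 CPM in negative ones. A test of whether the sort difference itself varied among the 4 tissues called 1.15% of 13963 genes and none of the 10 members.

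**Figure D5:**
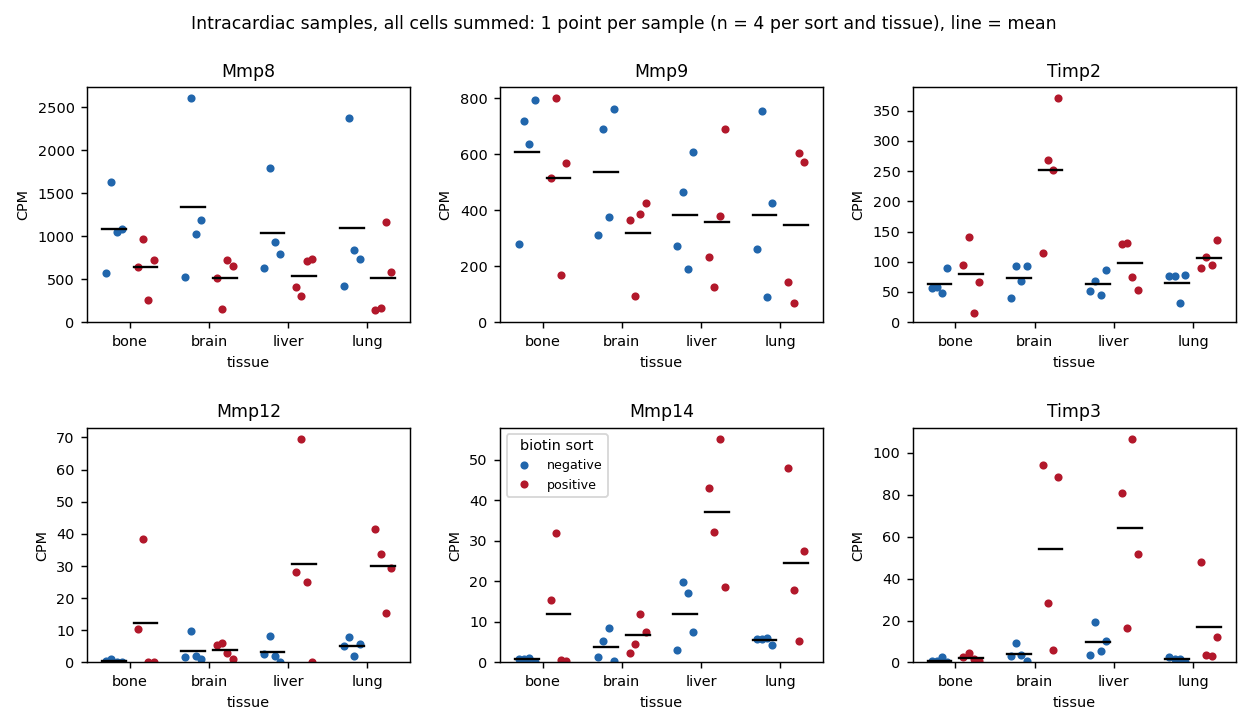
CPM of 6 members with all cells of each intracardiac sample summed, by tissue and sort (n = 4 each, blue negative, red positive, black lines are means). Timp2 in brain and Mmp12 in lung do not overlap between sorts (115 to 371 against 40.1 to 93.2 CPM, and 15.4 to 41.4 against 2.09 to 7.90 CPM), while Mmp8 overlaps in every tissue.

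Within neutrophils of the intracardiac samples no member of 5 tested passed in any of the 4 tissues, and 0% of genes were called in each. At an unadjusted p under 0.05, edgeR gave 567 of 9757 bone genes, 138 of 5864 liver genes, 38 of 6311 lung genes and 10 of 6318 brain genes, and DESeq2 called 1 gene in bone and 0 elsewhere. Mmp8 averaged 1330 ± 501 CPM in positive and 1709 ± 291 CPM in negative bone neutrophils. The brain means were 2138 ± 816 and 2447 ± 1372 CPM, those of liver 1976 ± 1043 and 2255 ± 921, and those of lung 2167 ± 1153 and 2066 ± 1032. In each tissue the 2 means differed by less than the larger SD. Mmp9 in bone neutrophils averaged 944 ± 157 and 1223 ± 203 CPM, lower in the positive sample of all 4 pairs, with an unadjusted p of 0.0184 (adjusted p = 0.762, edgeR). Mmp25 in the same cells averaged 122 ± 18.5 and 141 ± 17.2 CPM (unadjusted p = 0.0263). Here too the shares of the clusters differed by sort: cluster 12, at 117 CPM for Mmp9 and 70.8 CPM for Mmp25, was 23.8% of positive and 15.1% of negative bone neutrophils, and cluster 16, with the highest mean of both, 15.1% and 21.4%. The part of these shares was not tested.

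Monocytes gave no member past the threshold in any tissue in edgeR with the filter on low counts and no block, and 0% of genes were called in each. With no filter, edgeR called Mmp9 in liver (-1.98, adjusted p = 0.0226) and lung (1.53, adjusted p = 0.000199), among 0.0436% and 0.495% of genes. Their replicate numbers paired in all 4 tissues, and with the block Mmp9 passed in 3 of them, in different directions. Brain monocytes stood at 284, 164 and 246 CPM for Mmp9 in 3 positive samples and 76.4, 89.3, 165 and 258 CPM in negative ones, a blocked log2 difference of 1.19 (adjusted p = 0.000215, edgeR). Few cells lay behind the positive values, since brain had 52 positive monocytes over all replicates, against 1049 negative ones. Lung monocytes stood at 67.7, 53.0, 291 and 83.3 CPM against 21.8, 86.7, 34.8 and 25.1 CPM (1.82 with the block, adjusted p = 0.00395, edgeR; 1.62, SE 0.54, adjusted p = 0.549 without). Liver monocytes went the other way, at 13.3, 0 and 9.82 CPM against 30.8, 35.0, 47.4 and 73.1 CPM, with no overlap (-1.43 with the block, adjusted p = 0.0036, edgeR; -1.96, SE 0.49, adjusted p = 1 without). The monocytes of both sorts came from clusters 1, 2 and 13, in different shares. Cluster 13, which had the highest Mmp9 of the monocyte clusters, was 50.5% of positive and 16.7% of negative monocytes in lung, 36.5% and 16.4% in brain, and 20.4% and 6.56% in liver; the part of these shares in the Mmp9 differences was not tested. The blocked fits called 0.515% of genes in brain, 3.97% in lung and 0.372% in liver. Mmp8 in lung monocytes was -0.39 with the block (adjusted p = 0.0451, edgeR), at 882 ± 555 against 1100.3 ± 653 CPM. Whether the Mmp9 difference itself varied among tissues was not tested for monocytes.

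Among biotin negative neutrophils, bone was set against the mean of brain, liver and lung, where 34.4% of 9107 genes were called (18.1% higher and 16.3% lower in bone). Of 5 members tested, Mmp19 was lower in bone. It stood at 2.54, 2.89, 2.41 and 1.06 CPM in bone and 1.47, 31.0, 7.77 and 2.53 CPM in brain. Liver neutrophils had 2.80, 34.0, 17.2 and 19.9 CPM and lung neutrophils 5.15, 36.0, 11.3 and 30.2 CPM. The bone values overlapped those of brain, and liver replicate 1 lay within the bone range. The log2 difference was -3.02 (SE 0.81, adjusted p = 0.0122, edgeR), and it was kept in 16 of 16 fits that left out 1 sample. In the mature clusters alone it was -1.76 (adjusted p = 0.154, edgeR), and in the immature clusters alone Mmp19 was below the filter on low counts. Bone neutrophils lay mainly in clusters 11 (27.7%), 10 (21.9%), 16 (21.4%) and 12 (15.1%), while clusters 15 and 17 held 4.36% and 1.31% of them. Those 2 clusters held 48.6% and 41.8% of lung neutrophils, 41.5% and 32.6% of liver ones and 27.3% and 8.70% of brain ones. Brain neutrophils also lay in clusters 11 (21.3%), 10 (20.7%), 16 (12.9%) and 12 (8.51%). Mmp25 averaged 141 ± 17.2 CPM in bone against 124 ± 27.1 (brain), 106 ± 42.1 (liver) and 67.9 ± 13.5 (lung), a log2 difference of 0.46 (SE 0.20, adjusted p = 0.0775, edgeR). With the replicate as a block it was 0.49 (adjusted p = 0.0244, edgeR), without liver replicate 1 it was 0.54 (adjusted p = 0.0338), and in the immature clusters alone -0.11. Mmp8 was 1709 ± 291 CPM in bone and 2066 ± 1032 to 2447 ± 1372 CPM in the other tissues. Lung against liver called 0% of genes in neutrophils and in monocytes (948 of 9107 and 879 of 9432 at an unadjusted p under 0.05 in edgeR; 31 and 42 in DESeq2), and bone against the others called 0.0106% in monocytes, with no member in any of them.

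Other genes of the same pathways were counted from 4 lists: 17 genes of further MMPs and Timp4, 20 regulators of MMP activity and the plasminogen system, 16 ADAM and ADAMTS proteases, and 9 AP-1 factors. In IIA bone with all cells summed, where 50.2% of all genes passed, 3 of 4 tested further MMPs passed: Mmp2, the gelatinase of stromal cells, by 6.31 (SE 1.15, adjusted p = 0.00077) and Mmp28 by 1.59 were higher, and Mmp27 was lower (-1.96). Of 16 regulators 6 were higher and 3 lower, among them the protease nexin Serpine2 (1.95) and the elastase Elane (2.11), a leading gene of the granulocyte precursors, higher, and the membrane MMP inhibitor Reck (-1.76, SE 0.17, adjusted p = 1.1e-05) and Lcn2, which binds Mmp9 (-2.25), lower. Of 9 ADAM genes 2 were lower, and of 9 AP-1 factors none passed, in edgeR.

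In IIA macrophages, where 25.8% of all genes passed (12.7% higher, 13.2% lower), 8 of 11 regulators passed, 6 of them higher. The plasminogen activator Plau was higher by 3.04 (SE 0.43, adjusted p = 9.08e-05, edgeR) and the MMP clearance receptor Lrp1 by 1.45, while the Plau receptor Plaur (-1.17) and Cd44 (-1.25) were lower. Of 7 AP-1 factors 5 were lower there, such as Fos (-1.29) and Fosl2 (-1.63), and none higher. In IIA neutrophils, where 6.08% of all genes were higher, 6 of 9 AP-1 factors were higher, such as Fosl1 by 2.34 (SE 0.27, adjusted p = 0.000534, edgeR), Atf3 by 3.81 and Fosb by 2.74, and 3 of 14 regulators were higher. Cluster 2, with Fosl1, Fos and Nr4a1 among its leading genes, held the larger share of positive neutrophils given above, and its part in these differences was not tested. The opposite signs in the 2 classes were not tested against each other.

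In lung with all cells summed, where 18.3% of all genes passed, 4 of 16 regulators passed, among them Spp1 (2.92) and Plau (2.06), which were higher, and Itgb3 (-2.32), which was lower. Of 8 ADAM genes, Adamts2 (4.38) and Adam17 (0.67) were higher, and of 9 AP-1 factors Batf was lower (-0.88). Brain had Plau higher by 2.77 (SE 0.44, adjusted p = 0.0193, edgeR) as its 1 call among 17 regulators, where 3.06% of all genes passed. In biotin negative neutrophils, where 16.3% of all genes were lower in bone, 8 of 9 AP-1 factors were lower in bone than in the other tissues, with Atf3 at -3.39, Junb at -2.60, Fos at -2.38 and Jund at -2.24. For the clusters given above, shares differed between bone neutrophils and those of the other tissues, least for brain. The share of all genes called was 3.47% in the mature and 0.0981% in the immature clusters alone. Of 16 regulators 4 were higher in bone, such as Plau (2.43) and Serpine2 (2.04), and 3 lower, such as Furin (-1.11), which activates membrane-type MMPs, and Cd44 (-1.31). Of 7 ADAM genes, Adam19 (-1.55), Adam9 (-1.24) and Adam8 (-0.94) were lower.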

How the data were processed

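Single-cell RNA-seq UMI counts were deposited by the authors as gene by cell matrices of raw counts. Per the file headers they come from Cell Ranger 6.1.2 (intracardiac, 3′ ends, samples already separated) and 7.1.0 (IIA, 5′ ends, pooled), and per the submitters' processing notes the build is mm10 and Seurat was used. No source used here gives the annotation, intron setting or cell calling. IIA cells were given to a hashtag with at least 10 counts and 3 times the next tag. Cells with at least 500 UMIs, 200 genes and at most 15% mitochondrial UMIs were kept; doublets were scored but not removed, and removing the top 5% was an alternative. Clustering used scanpy 1.11.5 (2000 variable genes without the 2 families, 30 components, resolution 1); the tool versions were Python 3.11.15, R 4.3.3, edgeR 4.0.16 and DESeq2 1.42.0. Counts were summed per sample over all cells or a class (at least 10 cells) and tested with edgeR's quasi-likelihood test (TMM, default filter on low counts), with Benjamini-Hochberg adjustment over all genes tested at 0.05. Standard errors were derived from the F statistic. The labels do not say that samples came from separate animals, so p-values measure the spread between these samples. The fitting was tested on simulated counts with 1 dispersion for all genes. Of genes changed by 1 on the log2 scale, 19.2% were recovered for lung all cells, 64.3% for bone neutrophils and 86.7% for IIA neutrophils. Of genes changed by 2, 98.0%, 100% and 97.9% were recovered. A member that did not pass may therefore still differ by a small amount.

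The members and the gene lists were chosen with earlier results of these data known. Genes were named by membership, and for other lists by called genes with the smallest p, at most 4 per list; some genes are not reported here. Replicate numbers were taken to pair samples where every same-numbered positive and negative pair had correlated deviations over 0.1. This held for all cells in bone (0.45 to 0.74), brain (0.21 to 0.63) and liver (0.26 to 0.50), monocytes in all 4 tissues (lowest 0.11), neutrophils in bone, liver and lung (lowest 0.29) and cluster 20 in liver (lowest 0.19), and not elsewhere (lowest -0.09).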

Additional observations from a re-analysis of the deposited data

Results flagged for a closer look

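Of 147 groups of 4 to 10 sample values, 7 held a sample far from the others; chance gives about 1 in 20. With all cells summed, lung negative replicate 2 stood at 61.6 CPM for Mmp19, where the next sample was at 34.5 CPM, and lung negative replicate 3 stood at 32.2 CPM for Timp2, below the next at 75.8 CPM. In bone neutrophils, negative replicate 1 was high for Mmp9 (1524 against 1166 CPM) and for Mmp25 (167 against 135 CPM). In lung monocytes, positive replicate 3 stood at 291 CPM for Mmp9, above the next at 83.3 CPM. In IIA macrophages, negative injection 4, which had 16 macrophages, stood at 0 for Mmp9, below the next at 131 CPM, and negative injection 3 stood at 124 CPM for Mmp19, above the next at 67.4 CPM.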

How the results depend on the processing

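Of the alternatives for counts and summary values, 338 stayed within 1.5 times or the spread of the main value and 40 did not; for single members, 512 kept their call and direction, 22 lost it, 37 gained it and 3 changed sign. The number of members called moved as follows. In brain (0, all cells) it was 1 with the replicate block, 3 with DESeq2, 1 in a single fit over all tissues and 0 to 1 with a sample left out. In liver it was 1 with DESeq2. In lung (3) it was 1 with at most 5% mitochondrial UMIs, 1 in a single fit over all tissues and 1 to 3 with a sample left out. In monocytes (0) it was 1 with the replicate block in brain, 1 with it and 1 without a filter in liver, and 2 with it and 1 without a filter in lung. In IIA neutrophils (0) it was 3 in the immature clusters alone. In negative neutrophils of bone against the other tissues (1) it was 2 with RLE size factors, 2 with the replicate block, 2 with DESeq2, 0 in the mature or immature clusters alone and 1 to 2 with a sample left out. In cluster 20 (0) it was 2 without a filter, 3 with the replicate block and 1 with DESeq2 in liver, and 2, 3 and 2 in lung. In lung and IIA all cells, where at least 1 same-numbered pair had a correlation under 0.1, the block gave Mmp14 an adjusted p of 0.0695 in lung and Mmp9 one of 0.0282 in IIA bone (edgeR). The block moved no other count of members called by more than 1.5 times.

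Sign changes were Timp2 in IIA neutrophils (-0.0601 in mature and -0.72 in immature clusters) and Mmp25 in negative bone neutrophils against the others (-0.11 in immature clusters); the cause was not tested. Shares of cells with a UMI in the highest class fell when cells were thinned to 1000 UMIs, to 66.1% for Mmp8, 64.1% for Mmp9, 2.40% for Mmp12, 13.8% for Mmp14, 6.03% for Mmp19, 15.7% for Mmp25, 5.99% for Timp1, 43.4% for Timp2 and 50% for Timp3. Immature clusters alone could not be fitted in lung neutrophils. Over all intracardiac cells Timp1 rested on 1661 UMIs, Mmp13 on 1809, Mmp12 on 4095 and Mmp14 on 4189, which limits the precision of their levels per sample.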
